A study of Mus musculus with 18 samples.

Results

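The solute carriers considered here are 162 of the 56748 genes counted in a mouse macrophage cell line: genes whose symbol begins with Slc and a digit, annotated as protein coding, and selected on a mean count over the 18 libraries of at least 100. Of 377 protein-coding Slc genes, 11 were left out by name, 204 lay under the minimum (70 of them with no count in any library) and 162, from 41 numbered families, remained. All 162 passed the filter on low counts, so every member was tested in every comparison. Solute carriers are membrane proteins that move amino acids, sugars, nucleosides, vitamins, metals and ions across the plasma membrane and the membranes of lysosomes, Golgi and mitochondria, either down a gradient or coupled to another ion. In macrophages they are known for feeding arginine and glutamine to activated cells, for recovering heme and metals from phagosomes, and for carrying peptides and nucleosides out of lysosomes.

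RAW 264.7 cells, a transformed mouse macrophage line, were grown in wells. Their poly(A) RNA gave 18 libraries, with 3 replicates in each of the 6 conditions. Control cells were untreated. TBHQ (tert-butylhydroquinone, a phenolic food antioxidant) was given at 5 µM for 4 h and these cells were harvested at that point. LPS (lipopolysaccharide, a bacterial stimulus) was given at 0.1 µg/mL for 12 h and PIC (poly I:C, a double-stranded RNA analog) at 20 µg/mL for 12 h. In LPS+TBHQ and PIC+TBHQ, 4 h of 5 µM TBHQ preceded a further 12 h with the stimulus. The comparisons of TBHQ, LPS and PIC with Control share the same 3 Control libraries, and their values are set side by side without counting overlaps. The LPS libraries likewise enter both LPS against Control and LPS+TBHQ against LPS, on opposite sides, and so do the PIC libraries. A fall with a stimulus beside a rise after pre-treatment, or the reverse, is therefore not a pair of independent values. All conditions share 1 cell line, and the replicates are separate samples of it, so the spread is that between cultures of it. The study's figure legend and table note place Control at 12 h like LPS and PIC, whereas TBHQ cells were harvested after 4 h, so the compound and the time cannot be told apart for TBHQ against Control. TBHQ was dissolved in DMSO, and the methods name no DMSO for the cells without TBHQ in the sequencing experiment. The compound and its solvent therefore cannot be told apart either, alone or as pre-treatment. Pre-treated cells had a further 12 h after the 4 h of TBHQ, whereas cells with TBHQ alone had none. Stimulus and time therefore cannot be told apart where TBHQ alone is set beside pre-treatment. The libraries held 14423390 to 18851626 counts.

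The members were chosen by their overall level, so the levels are a description only. Just inside the minimum were Slc8a1, Slc26a11 and Slc39a8, with mean counts of 113, 109.8 and 109.6, and just outside were Slc29a2, Slc7a14 and Slc25a14 with 95.1, 92.9 and 89.1. In all, 7 genes under the minimum, Slc29a2 and Slc7a14 among them, reached it in the mean of at least 1 condition. They also include, named after their values were seen, the glutamate carrier Slc17a6, at 0.291 FPKM in Control and 1.70 in PIC+TBHQ, and the zinc importer Slc39a4, at 0.406 and 1.88 FPKM in Control and LPS+TBHQ. The folate transporter Slc46a1, with a mean count of 70.9, was not a member. FPKM, a level per gene length and library total, was computed here from the counts, the listed gene length and library totals scaled by TMM, a normalization that sets most genes equal between libraries. The members took 1.34% to 1.37% of the counts in Control and PIC libraries, 1.39% to 1.40% in LPS and 1.44% to 1.47% in the TBHQ, LPS+TBHQ and PIC+TBHQ libraries.

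Macrophage identity was checked on 10 markers. Of these, 9 were tested, from Ptprc at a mean of 15.3 FPKM and Fcgr1 at 8.79 to Lyz2 at 3986, while Mertk had a mean count of 0.78 per library. Some of these markers moved with treatment. Fcgr1 had log2FC of -1.28 with TBHQ, -1.37 for TBHQ before LPS and -1.08 before PIC. With TBHQ, LPS and PIC in turn, Adgre1 was at -0.53, 1.45 and 1.86, Itgam at -0.41, 0.96 and 1.25, and Csf1r at 0.18, -0.75 and -0.85. The bearing of these shifts on the members was not tested. Another 10 markers of epithelium, fibroblasts, endothelium, T cells and B cells had mean counts of 0 to 3.50 (Cd79a), with Krt18, Col1a2 and Cd3e at 0 in all libraries. Known responses to TBHQ and to the stimuli were present in these libraries. Gclm, a glutathione synthesis gene, was at 17.5, 17.5 and 18.5 FPKM in Control and 61.4, 64.1 and 63.7 in TBHQ, a log2 fold change (log2FC) of 1.82 (SE 0.03, FDR 7.84e-29). The heme oxygenase gene Hmox1 rose by 2.09 on the log2 scale, and the thioredoxin reductase gene Txnrd1 was at 65.5, 60.4 and 62.7 FPKM in Control and 154, 153 and 158 in TBHQ. Nos2, the inducible nitric oxide synthase gene, was higher with LPS by 2.35 and with PIC by 2.88. The prostaglandin synthase gene Ptgs2 and the itaconate synthesis gene Acod1 were higher with both stimuli too, by 4.25 and 4.07 with LPS and by 5.80 and 5.22 with PIC. The cytokine gene Il1b was at 0.0341, 0.0641 and 0.0309 FPKM in Control, 52.6, 41.5 and 39.2 in LPS and 132, 140.0 and 107 in PIC. Sizes of change are given as log2FC throughout. Members named below for a large change were mostly picked among those called without overlap of libraries. For them a lack of overlap is a description and adds no support. FDR is the Benjamini-Hochberg adjusted p over all genes tested, and SE is that of the difference between means of log2 CPM over 3 replicates each.

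The 10 members of highest mean level are given in FPKM. Slc25a5, an ADP/ATP carrier of the inner mitochondrial membrane, had a mean of 417 FPKM over the libraries. The betaine and GABA transporter Slc6a12 followed at 119, the fatty acid transporter Slc27a1 at 99.4 and the second ADP/ATP carrier Slc25a4 at 87.7. The glutamine transporter Slc1a5 stood at 87.0 FPKM, the mitochondrial phosphate carrier Slc25a3 at 84.8, the zinc importer Slc39a1 at 84.7, the taurine transporter Slc6a6 at 81.6, the lysosomal peptide and histidine transporter Slc15a3 at 75.6 and the heme transporter Slc48a1 at 71.2. Among these 10, Slc15a3 and Slc48a1 varied most between conditions, as given below by class, whereas Slc25a5 ranged from a condition mean of 394 in LPS+TBHQ to 438 in TBHQ. Slc6a12 was lower with LPS and PIC, at -0.14 and -0.18 on the log2 scale, and higher for TBHQ before each, at 0.22 and 0.26. Named Slc but not transporters themselves are Slc9a3r1, a scaffold protein, Slc7a6os, named after a neighbouring carrier, and Slc4a1ap, named after the carrier Slc4a1. They were kept as the rule takes them and are in the class counts.

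With TBHQ alone, 40 members were higher and 35 lower than in Control at an FDR below 0.05, beside 14.2% and 14.8% of all 13691 genes tested. Those are 24.7% and 21.6% of the members. The heme transporter Slc48a1, the organic cation carrier Slc22a4 and the creatine carrier Slc16a12 rose and the zinc importer Slc39a2 and the lysosomal carrier Slc46a3 fell by more than 2-fold. These 5 members, 3.09%, stand beside 1.99% of all genes (FDR below 0.05, |log2FC| above 1). The members' log2FC ran from -1.60 to 1.31, within the fold the study set (|log2FC| above 2 with FDR below 0.01), which 0.190% of all genes passed here. Fewer cells of a type and less RNA per cell cannot be told apart in such bulk samples.

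With LPS, 57 members were higher and 48 lower than in Control, beside 24.0% and 24.1% of all genes. The member shares were 35.2% and 29.6%. Of them, 7 rose by more than 2-fold while the lowest log2FC was -0.99, and these 7 are 4.32% of the members beside 7.46% of all genes. At the study's threshold, Slc15a3 alone was called, beside 1.64% of all genes. With PIC, 64 members were higher and 59 lower, beside 28.6% and 30.1% of all genes, with member shares of 39.5% and 36.4%. More than 2-fold changes counted 9 higher and 3 lower, 7.41% beside 13.2% of all genes, and Slc15a3 was again alone at the study's threshold, beside 3.57%. The members thus passed the FDR threshold at a larger share than all genes and the 2-fold threshold at a smaller share with either stimulus. Members were selected on high counts, so nothing particular to carriers is read from these shares. The split with PIC depends on the scaling. When libraries were scaled by their totals alone, 42 members were higher and 89 lower, beside 17.4% and 48.5% of all genes, since that scaling moved the median log2FC of all genes to -0.23, and the LPS split became 45 higher and 60 lower, beside 17.9% and 33.3%.

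TBHQ before LPS left 37 members higher and 17 lower than LPS alone, beside 11.7% and 12.2% of all genes. Members ran from a log2FC of -0.95 to 0.93, all within 2-fold, while 1.86% of all genes passed that threshold. TBHQ before PIC left 52 members higher and 22 lower than PIC alone, beside 15.8% and 15.5% of all genes. Here Slc16a12 rose and Slc28a2 and Slc28a2b fell by more than 2-fold, 3 members or 1.85%, beside 2.38%. The member shares were 22.8% and 10.5% with LPS and 32.1% and 13.6% with PIC. With total library size the LPS split became 46 and 15 (higher and lower), beside 15.1% and 10.2% of all genes, and the PIC split 79 higher and 18 lower, beside 24.8% and 10.5%. Under TMM the median log2FC of the members was 0.05 and 0.08, against 0.00 and 0.01 over all genes tested. Against LPS, PIC had 30 members higher and 30 lower, beside 14.9% and 12.8% of all genes, and members ran from -0.73 to 0.69, within the 2-fold threshold that 1.84% of all genes passed. With total library size the split became 17 higher and 79 lower, beside 7.19% and 31.9% of all genes. In all, 143 members were called in at least 1 of these 6 comparisons, which share libraries, or 88.3% beside 74.7% of all genes. The other 19 were called in none, among them the lysosomal peptide transporter Slc15a4 and the lysosomal nucleoside transporter Slc29a3.

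**Figure D1:**
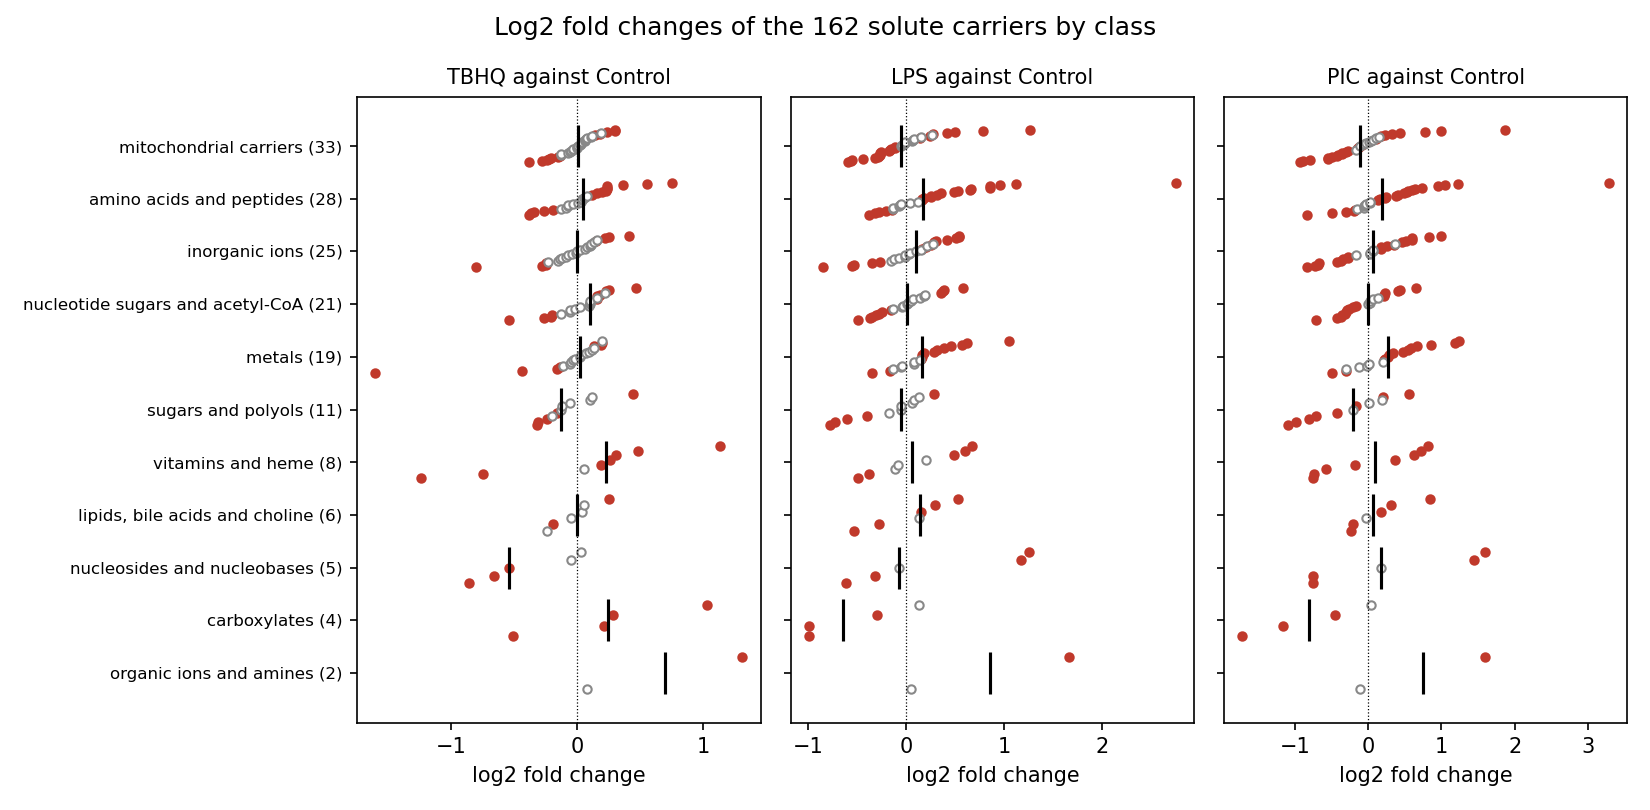
Log2 fold changes of the 162 solute carriers (horizontal axis) in 3 comparisons with Control, by class of transported solute (vertical axis, number of genes in parentheses). Filled points had an FDR below 0.05, open points did not, and the black line is the class median. Slc15a3 is the point farthest right for LPS, at 2.75, and for PIC, at 3.29.

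Of the 28 genes classed with amino acids and peptides (Slc7a6os included), 16 rose and 5 fell with LPS, beside 24.0% and 24.1% of all genes, and 16 rose and 5 fell with PIC, beside 28.6% and 30.1%, with medians of 0.17 and 0.20 against 0.00 and -0.01 over all genes. This split depends on the scaling: with total library size 13 and 10 were higher and lower with LPS, beside 17.9% and 33.3% of all genes, and 12 and 13 with PIC, beside 17.4% and 48.5%. Slc15a3 (ENSMUSG00000024737, chromosome 19), the lysosomal carrier of histidine and small peptides (including bacterial cell wall fragments), had the largest change of any member with either stimulus. It was at 15.4, 14.7 and 13.6 FPKM in Control, 102, 91.1 and 101 in LPS and 142, 144 and 140.1 in PIC. After TBHQ pre-treatment it was at 75.7, 72.7 and 77.4 with LPS and 112, 110.0 and 110.2 with PIC. The 3 PIC libraries lay above the 3 LPS libraries, and each pre-treated group lay below its stimulus alone, with no overlap. The log2FC was 2.75 (SE 0.07, FDR 2.02e-32) with LPS, 3.29 (SE 0.05, FDR 3.85e-35) with PIC, -0.38 (SE 0.06, FDR 5.94e-09) for TBHQ before LPS and -0.36 (SE 0.01, FDR 1.49e-08) before PIC. Exons of Tmem132a lie over those of Slc15a3 on the opposite strand, and Tmem132a, at a mean of 8.14 FPKM, also rose by 2.15 with LPS and 2.72 with PIC. Pre-treatment lowered Tmem132a too, with log2FC of -0.67 before LPS and -0.59 before PIC. The study's methods describe stranded libraries, but the strand setting of the counting is not given in the sources used here, so the counts of this pair are uncertain. With TBHQ alone Slc15a3 was at 11.9, 12.6 and 13.8 FPKM, overlapping Control, and the log2FC of -0.19 (FDR 0.00448) had an FDR of 0.0545 without TBHQ replicate 1. Its relative Slc15a4, at a mean of 6.86 FPKM, had log2FC of -0.13 (FDR 0.121) and -0.15 (FDR 0.0721).

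Neutral amino acid carriers moved in both directions. Slc1a4, which exchanges alanine, serine and cysteine, was at 2.94, 3.35 and 3.03 FPKM in Control, 4.70, 3.92 and 5.01 in TBHQ, 6.39, 6.71 and 7.18 in LPS and 4.49, 5.02 and 4.995 in PIC. All 9 treated libraries lay above the Control libraries, and LPS lay above PIC: the log2FC was 0.55 with TBHQ, 1.12 (SE 0.07, FDR 1.05e-12) with LPS and 0.64 with PIC, and -0.48 for PIC against LPS. Slc43a2, a facilitative carrier of leucine and other neutral amino acids, went the other way with the stimuli: 9.53, 10.3 and 10.4 FPKM in Control, 17.1, 17.1 and 16.6 in TBHQ, 7.17, 7.64 and 8.46 in LPS and 5.41, 5.24 and 6.32 in PIC. It was raised by TBHQ, with a log2FC of 0.75 (SE 0.04, FDR 4.57e-13), and lowered by LPS and PIC, with -0.38 and -0.83. TBHQ before the stimulus gave 10.3, 10.99 and 10.2 FPKM with LPS and 10.8, 9.77 and 9.52 with PIC, above either stimulus alone by 0.44 and 0.82 on the log2 scale and with no overlap of libraries. The antisense transcript Gm45606, at a mean of 0.888 FPKM, overlaps exons of Slc43a2 and fell too, with log2FC of -0.80 with LPS and -1.45 with PIC. Slc38a1, a sodium-coupled glutamine carrier, was at 16.0, 15.4 and 14.9 FPKM in Control, 18.9, 18.4 and 18.4 in LPS, 29.5, 29.6 and 30.5 in PIC and 26.2, 26.1 and 25.6 in PIC+TBHQ. It had the largest rise of any member in PIC against LPS, 0.69 (SE 0.02, FDR 1.54e-18), and the PIC libraries lay above all others.

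The large neutral amino acid carrier Slc7a5 rose by 0.36 with TBHQ. It was also called higher with LPS, but with total library size that log2FC was 0.08 (FDR 0.152). For TBHQ before PIC it was called higher too, but without PIC replicate 1 the log2FC was 0.11 (FDR 0.0981). Its relative Slc7a8 was at 7.69 FPKM in Control and rose by 0.66 with LPS and 1.05 with PIC. TBHQ pre-treatment lowered Slc7a8, with log2FC of -0.34 before LPS and -0.55 before PIC. With TBHQ alone it was at 0.20, with an FDR of 0.0665 without TBHQ replicate 1. Slc7a1, a carrier of arginine and lysine at a mean of 32.9 FPKM, rose by 0.24 with TBHQ, 0.53 with LPS and 0.53 with PIC, and pre-treatment gave values of 0.01 (FDR 0.841) and -0.03 (FDR 0.587). Slc7a7, which exports cationic in exchange for neutral amino acids, was at 2.10, 2.38 and 2.18 FPKM in Control and 5.18, 4.89 and 5.51 in PIC, a log2FC of 1.23 (SE 0.07, FDR 1.82e-12). Exons of Oxa1l overlap it on the opposite strand, and the log2FC of Oxa1l was -0.47 there. The glutamine transporter Slc1a5 rose by 0.23 with TBHQ and 0.18 with LPS. With PIC it was 0.13 under TMM but -0.09 with total library size, and without Control replicate 3 its FDR was 0.0527. Slc38a2, a glutamine carrier that cells raise on amino acid shortage, had condition means of 58.2 FPKM in LPS to 67.5 in PIC. Its log2FC with PIC was 0.16 under TMM and -0.06 with total library size. Of the carriers of osmolytes and amines, the taurine transporter Slc6a6 rose by 0.24 with TBHQ and fell, with log2FC of -0.32 with LPS and -0.50 with PIC. Pre-treatment raised it by 0.17 and 0.24. The serotonin transporter Slc6a4 rose by 0.96 with LPS and 0.74 with PIC, and pre-treatment lowered it, with log2FC of -0.55 and -0.46. The glycine transporter Slc6a9 was higher by 0.86 with LPS and 0.54 with PIC, and by a further 0.41 for TBHQ before PIC. Exons of B4galt2 and Ccdc24 overlap those of Slc6a9 on the opposite strand, so its counts are uncertain.

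Among the 8 carriers of vitamins and heme, 5 rose and 2 fell with TBHQ, beside 14.2% and 14.8% of all genes. Slc48a1 (ENSMUSG00000081534, chromosome 15), which moves heme out of phagolysosomes into the cytosol, was at 35.3, 36.8 and 34.6 FPKM in Control and 77.3, 77.1 and 79.2 in TBHQ. It was at 58.7, 54.0 and 57.3 in LPS and 85.5, 90.6 and 95.3 in LPS+TBHQ, and at 59.97, 63.8 and 63.3 in PIC and 102, 104 and 107 in PIC+TBHQ. Every treated group lay above Control, and every group given TBHQ lay above its counterpart without it, with no overlap. The log2FC was 1.13 (SE 0.03, FDR 2.98e-21) for TBHQ alone, 0.67 (SE 0.06, FDR 1.81e-15) before LPS and 0.74 (SE 0.03, FDR 9.41e-17) before PIC, and 0.67 and 0.81 for LPS and PIC against Control. Exons of Hdac7 overlap it on the opposite strand, and Hdac7 was at a mean of 0.117 FPKM. Slc46a3, a lysosomal carrier, was at 3.88, 3.48 and 4.60 FPKM in Control, 1.92, 1.61 and 1.54 in TBHQ and 1.82, 2.25 and 3.00 in PIC. It fell, with log2FC of -1.24 with TBHQ and -0.74 with PIC, while the LPS value of -0.11 (FDR 0.55) did not pass. The lysosomal Slc49a4 also fell with TBHQ (log2FC -0.75).

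Slc19a2, a thiamine transporter, was at 7.04, 7.03 and 7.84 FPKM in Control, 10.7, 11.4 and 11.1 in LPS and 11.6, 10.7 and 11.4 in PIC. With TBHQ first it was at 7.27, 8.19 and 7.71 with LPS and 6.30, 6.08 and 6.15 with PIC, so that the PIC+TBHQ libraries lay below Control too. Pre-treatment lowered it, with log2FC of -0.52 (SE 0.05, FDR 1.32e-07) before LPS and -0.86 (SE 0.04, FDR 1.74e-12) before PIC, whereas TBHQ alone raised it by 0.26. The biotin and pantothenate transporter Slc5a6 was lower with LPS (log2FC -0.49) and PIC (-0.75), and higher after pre-treatment by 0.47 and 0.58. Exons of Atraid overlap it on the opposite strand, and Atraid, at a mean of 10.2 FPKM, had log2FC of -0.39 with LPS and -0.60 with PIC, so the counts of this pair are uncertain. Slc23a2, a sodium-coupled vitamin C transporter, was at 27.2, 27.2 and 27.6 FPKM in Control and 38.3, 37.8 and 38.6 in TBHQ, with log2FC of 0.48, 0.49 and 0.72 for TBHQ, LPS and PIC.

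Of the 19 metal carriers, 11 rose and 2 fell with LPS, beside 24.0% and 24.1% of all genes, and 12 rose and 2 fell with PIC, beside 28.6% and 30.1%, with medians of 0.16 and 0.27 on the log2 scale. Scaled by library totals, the counts higher and lower were 7 and 3 with LPS, beside 17.9% and 33.3% of all genes, and 8 and 6 with PIC, beside 17.4% and 48.5%, with medians of 0.07 and 0.05. For TBHQ before LPS 2 rose and 6 fell, beside 11.7% and 12.2% of all genes, and before PIC 3 rose and 4 fell, beside 15.8% and 15.5%. By library totals these counts were 2 and 5 before LPS, beside 15.1% and 10.2%, and 5 and 4 before PIC, beside 24.8% and 10.5%. Slc31a2, a copper transporter of endosomes and lysosomes, was at 34.5, 37.0 and 35.0 FPKM in Control, 75.4, 74.3 and 70.5 in LPS and 81.5, 87.3 and 83.0 in PIC, and at 36.8, 33.1 and 35.5 in TBHQ. The stimulated libraries lay above Control, with log2FC of 1.05 (SE 0.04, FDR 7.51e-21) and 1.24 (SE 0.04, FDR 1.64e-23), while TBHQ and Control overlapped. The plasma membrane copper importer Slc31a1 followed in the same direction, by 0.57 and 0.86, and pre-treatment lowered it, with log2FC of -0.21 and -0.33. Slc39a2, a zinc importer, was at 2.00, 2.15 and 1.81 FPKM in Control, 0.542, 0.724 and 0.692 in TBHQ and 4.17, 4.77 and 4.65 in PIC. The 3 TBHQ libraries lay below all others, with a log2FC of -1.60 (SE 0.14, FDR 3.22e-09), and the PIC value was 1.19 (SE 0.09, FDR 5.99e-10). Pre-treatment lowered Slc39a2, with log2FC of -0.59 before LPS and -0.40 before PIC, but without PIC+TBHQ replicate 1 the FDR of the latter was 0.0633. Its exons overlap those of Mettl17 on the same strand, so its counts are uncertain. The log2FC of Mettl17 was -0.43 with TBHQ and -0.24 with PIC.

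Other zinc carriers changed by less. Slc39a1 rose by 0.29 with LPS and 0.66 with PIC. Slc39a8, which takes up zinc and manganese, lay at the minimum and was at 1.20, 0.893 and 0.975 FPKM in Control and 0.716, 0.643 and 0.903 in TBHQ. The groups overlapped, and the log2FC of -0.44 (SE 0.19, FDR 0.0195) had an FDR of 0.156 without Control replicate 1, 0.0696 without TBHQ replicate 1 and 0.119 without TBHQ replicate 2.

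Among 33 mitochondrial carriers, 7 rose and 16 fell with LPS, beside 24.0% and 24.1% of all genes, and 8 rose and 16 fell with PIC, beside 28.6% and 30.1%, with medians of -0.05 and -0.11. With total library size the counts higher and lower became 5 and 18 with LPS, beside 17.9% and 33.3% of all genes, and 4 and 23 with PIC, beside 17.4% and 48.5%. The sodium and calcium exchanger Slc8b1, named after its values were seen, rose by 0.79 with LPS and 0.99 with PIC. Slc25a37 (ENSMUSG00000034248, chromosome 14), mitoferrin, which brings iron into mitochondria for heme and iron-sulfur cluster synthesis, was at 17.0, 15.9 and 17.1 FPKM in Control, 40.9, 39.7 and 39.3 in LPS and 62.8, 61.7 and 58.6 in PIC. TBHQ first gave 34.7, 33.5 and 32.9 with LPS and 52.3, 52.9 and 49.8 with PIC. The order from Control to LPS to PIC had no overlap of libraries, and pre-treated libraries lay below those with the stimulus alone. The log2FC was 1.26 (SE 0.04, FDR 1.87e-24) with LPS and 1.87 (SE 0.04, FDR 4.21e-30) with PIC, and -0.25 and -0.24 for pre-treatment before them. TBHQ alone gave 0.24. The second mitoferrin, Slc25a28, named after its values were seen, was at 11.2 FPKM in Control and fell, with log2FC of -0.27 with LPS and -0.55 with PIC.

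Slc25a10, which exchanges dicarboxylates such as malate and succinate for phosphate, was at 15.6, 16.6 and 16.1 FPKM in Control, 10.4, 10.6 and 11.1 in LPS and 7.86, 9.23 and 8.97 in PIC. The 3 groups descended in that order, with log2FC of -0.59 (SE 0.04, FDR 5.54e-10) with LPS and -0.89 (SE 0.08, FDR 1.58e-14) with PIC, and TBHQ before LPS or PIC raised the gene by 0.32 and 0.39. Slc25a23, an ATP-magnesium and phosphate carrier, fell, with log2FC of -0.38 with TBHQ, -0.56 with LPS and -0.93 with PIC. The glutathione carrier Slc25a39 fell, with log2FC of -0.17 with LPS and -0.27 with PIC, and was at 0.25 for TBHQ before PIC. The citrate carrier Slc25a1 had values of 0.06 (FDR 0.353) and -0.03 (FDR 0.652) with the stimuli, the oxoglutarate carrier Slc25a11 -0.04 (FDR 0.471) with LPS, and the acylcarnitine carrier Slc25a20 0.15 (FDR 0.195) and 0.15 (FDR 0.175). Slc25a11 was called lower with PIC, but without Control replicate 3, PIC replicate 1 or PIC replicate 3 its FDR was 0.0717 to 0.0882. The branched-chain amino acid carrier Slc25a44 fell, with log2FC of -0.32 with LPS and -0.30 with PIC, was higher for TBHQ before LPS and PIC, by 0.41 and 0.39, and had a log2FC of -0.22 with TBHQ alone. Slc25a36, a pyrimidine nucleotide carrier, was lower for TBHQ before PIC (log2FC -0.36).

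Slc22a4 (ENSMUSG00000020334, chromosome 11), which takes up ergothioneine and organic cations, rose in every comparison but PIC against LPS. It was at 1.42, 1.17 and 1.84 FPKM in Control, 3.61, 3.41 and 4.01 in TBHQ, 4.90, 4.31 and 4.91 in LPS and 4.02, 4.83 and 4.66 in PIC. All treated libraries lay above Control. The log2FC was 1.31 (SE 0.19, FDR 4.38e-09) with TBHQ, 1.66 (SE 0.19, FDR 1.9e-12) with LPS and 1.60 (SE 0.20, FDR 2.92e-12) with PIC. TBHQ before the stimulus added 0.43 with LPS and 0.61 with PIC. The carnitine transporter Slc22a5, the other member of this class and named after its values were seen, was at 0.08 (FDR 0.641) with TBHQ and -0.11 (FDR 0.415) with PIC. Of the 4 carboxylate carriers, 3 fell with LPS and 3 with PIC, beside 24.1% and 30.1% of all genes, and the remaining 1 did not pass. Under total library size they were 3 and 4, beside 33.3% and 48.5%. Slc16a12 (ENSMUSG00000009378, chromosome 19), a creatine carrier, was at 6.20, 5.98 and 6.29 FPKM in Control, 13.0, 11.9 and 12.8 in TBHQ, 3.08, 3.43 and 2.81 in LPS and 1.47, 1.78 and 2.28 in PIC. With TBHQ first it was at 5.60, 5.60 and 6.51 with LPS and 4.76, 4.88 and 4.66 with PIC. It had the largest rise of any member after pre-treatment, 0.93 (SE 0.11, FDR 1.67e-09) before LPS and 1.35 (SE 0.18, FDR 2.58e-12) before PIC, and fell, with log2FC of -0.99 with LPS and -1.72 with PIC, while TBHQ alone gave 1.03 (SE 0.04, FDR 2.3e-12). Slc16a7, a lactate and pyruvate carrier of 1.09 FPKM in Control, fell, with log2FC of -0.99 with LPS and -1.17 with PIC.

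Of the 5 carriers of nucleosides and nucleobases, 2 rose and 2 fell with LPS, beside 24.0% and 24.1% of all genes, and 2 rose and 2 fell with PIC, beside 28.6% and 30.1%, the risers being a pair of close copies. Slc28a2 (ENSMUSG00000027219, chromosome 2), which concentrates purine nucleosides with sodium, was at 7.35, 6.16 and 7.25 FPKM in Control, 14.9, 16.5 and 15.3 in LPS and 19.1, 19.03 and 18.04 in PIC. TBHQ gave 3.83, 3.86 and 3.73 alone, 8.11, 8.80 and 8.16 before LPS and 8.34, 7.83 and 7.89 before PIC. The stimuli raised it by 1.17 (SE 0.09, FDR 9.22e-18) and 1.44 (SE 0.09, FDR 7.16e-21), and TBHQ lowered it, with log2FC of -0.86 (SE 0.08, FDR 1.56e-11) alone, -0.90 (SE 0.06, FDR 3.29e-14) before LPS and -1.22 (SE 0.04, FDR 7.83e-18) before PIC, with no overlap of libraries in any of the 5 comparisons. Its copy Slc28a2b (ENSMUSG00000079071), at a mean of 1.59 FPKM, had log2FC of 1.25 with LPS, 1.59 with PIC, -0.66 with TBHQ alone, -0.95 for TBHQ before LPS and -1.17 before PIC. Without Control replicate 1 the FDR of the TBHQ value was 0.0689. The 2 genes are close copies, so the split of reads between them is uncertain. The equilibrative carrier Slc29a1 moved the other way, at 14.8, 14.1 and 14.5 FPKM in Control, 9.52, 9.22 and 9.73 in LPS and 8.47, 8.57 and 8.63 in PIC, and fell, with log2FC of -0.61 (SE 0.03, FDR 4.96e-12) with LPS and -0.76 (SE 0.02, FDR 1.08e-14) with PIC. The purine nucleobase carrier Slc43a3 was lower in all 3 comparisons with Control, with log2FC of -0.54 for TBHQ, -0.32 for LPS and -0.76 for PIC.

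Of the 11 carriers of sugars and polyols, 2 rose and 6 fell with PIC, beside 28.6% and 30.1% of all genes, or 1 and 7 with total library size, beside 17.4% and 48.5%, with a TMM median of -0.21. The high-affinity glucose transporter Slc2a3 was at 6.41, 7.43 and 7.27 FPKM in Control, 4.24, 4.70 and 5.03 in LPS and 3.81, 3.43 and 3.44 in PIC, and fell, with log2FC of -0.60 with LPS and -0.99 with PIC. Slc2a6, a lysosomal hexose carrier, was instead raised by 0.56 with PIC and by 0.44 and 0.44 for TBHQ before each stimulus. LPS alone gave 0.06 (FDR 0.268), and TBHQ alone -0.32. Slc5a3, which imports myo-inositol, was at 11.6, 10.99 and 12.2 FPKM in Control, 16.9, 15.3 and 14.9 in TBHQ and 6.91, 7.00 and 6.46 in LPS. It rose by 0.44 with TBHQ and fell, with log2FC of -0.77 with LPS and -0.71 with PIC, but its exons overlap those of Mrps6 on the same strand, so its counts are uncertain, and Mrps6 itself had log2FC of -0.72 with LPS and -0.82 with PIC. The glucose phosphate translocase Slc37a4 and the phosphate-linked exchanger Slc37a2 were lower for TBHQ before LPS: Slc37a2 was at 38.3, 38.3 and 39.4 FPKM in LPS and 29.0, 29.3 and 29.2 in LPS+TBHQ, a log2FC of -0.41 (SE 0.01, FDR 9.61e-11), and the log2FC of Slc37a4 was -0.36 for TBHQ before LPS and -0.32 before PIC. Slc37a1 fell, with log2FC of -0.72 and -1.09 with LPS and PIC.

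Among 25 genes classed with inorganic ions (Slc9a3r1 and Slc4a1ap included), 10 rose and 9 fell with PIC, beside 28.6% and 30.1% of all genes, or 7 and 13 with total library size, beside 17.4% and 48.5%. The bicarbonate carrier Slc4a7 was at 6.94, 7.06 and 7.50 FPKM in Control, 10.2, 11.5 and 9.65 in LPS and 12.4, 12.2 and 13.7 in PIC, and rose by 0.41 with TBHQ, 0.54 with LPS and 0.83 with PIC. TBHQ before PIC lowered it, with log2FC of -0.39. The proton exchanger Slc9b2 fell with TBHQ (log2FC -0.80). The sodium and calcium exchanger Slc8a1, at 0.545 FPKM in Control, had log2FC of -0.85 with LPS and -0.84 with PIC. Its mean count of 113 lay just inside the minimum, so its membership may depend on the conditions where it was higher. Its fall is therefore a description only. The class as a whole ran from -0.84 to 0.99 with PIC and from -0.85 to 0.54 with LPS, where 9 rose and 5 fell, beside 24.0% and 24.1% of all genes. Slc17a9, which loads ATP into vesicles, was at 6.80, 7.18 and 5.80 FPKM in LPS and 10.1, 9.88 and 8.70 in LPS+TBHQ, and rose by 0.54 (SE 0.11, FDR 1.25e-05) and 0.70 (SE 0.12, FDR 1.66e-07) after pre-treatment. The phosphate importer Slc20a1 was at 47.2, 44.7 and 42.5 FPKM in LPS and 56.2, 56.5 and 56.2 in LPS+TBHQ, higher by 0.33, and for PIC by 0.32. For PIC against Control it was 0.17 under TMM and -0.05 with total library size. Of the anion exchangers, Slc26a6 rose by 0.63 for TBHQ before PIC.

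The 21 carriers of nucleotide sugars, acetyl-CoA and related substrates of the Golgi and endoplasmic reticulum had 7 higher and 14 not called for TBHQ before LPS, and 7 and 14 for TBHQ before PIC, beside 11.7% and 15.8% of all genes that were higher. With total library size, 7 and 10 were higher, beside 15.1% and 24.8%. With PIC alone, 6 were higher and 10 lower than in Control, beside 28.6% and 30.1% of all genes, or 2 and 13 with total library size, beside 17.4% and 48.5%. The TMM values with PIC ran from -0.71 to 0.65. Slc35c2, a regulator of Golgi fucosylation, was at 28.8, 29.9 and 29.6 FPKM in Control, 18.4, 17.7 and 17.8 in PIC and 26.5, 25.2 and 26.7 in PIC+TBHQ, with log2FC of -0.71 for PIC, 0.54 (SE 0.03, FDR 1.05e-11) for pre-treatment and -0.20 for TBHQ alone. Slc35b1, which supplies ATP to the endoplasmic reticulum, fell, with log2FC of -0.21 with TBHQ, and rose by 0.17 for TBHQ before LPS. With TBHQ alone, Slc35e3 rose by 0.47 and Slc35d2 was at -0.54, although the FDR of the latter was 0.136 without Control replicate 3 and 0.0548 without TBHQ replicate 1. Of the 6 carriers of lipids, bile acids and choline, the fatty acid carriers Slc27a1 and Slc27a4 rose with LPS by 0.30 and 0.53 and with PIC by 0.31 and 0.84. In this class 3 were higher and 2 lower with LPS, beside 24.0% and 24.1% of all genes. With PIC the counts were 3 and 2 too, beside 28.6% and 30.1%. By library totals they became 2 and 2 for LPS, beside 17.9% and 33.3%, and 2 and 3 for PIC, beside 17.4% and 48.5%. The lowest log2FC in the class was -0.53 for LPS and -0.24 for PIC, and the highest 0.53 and 0.84.

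**Figure D2:**
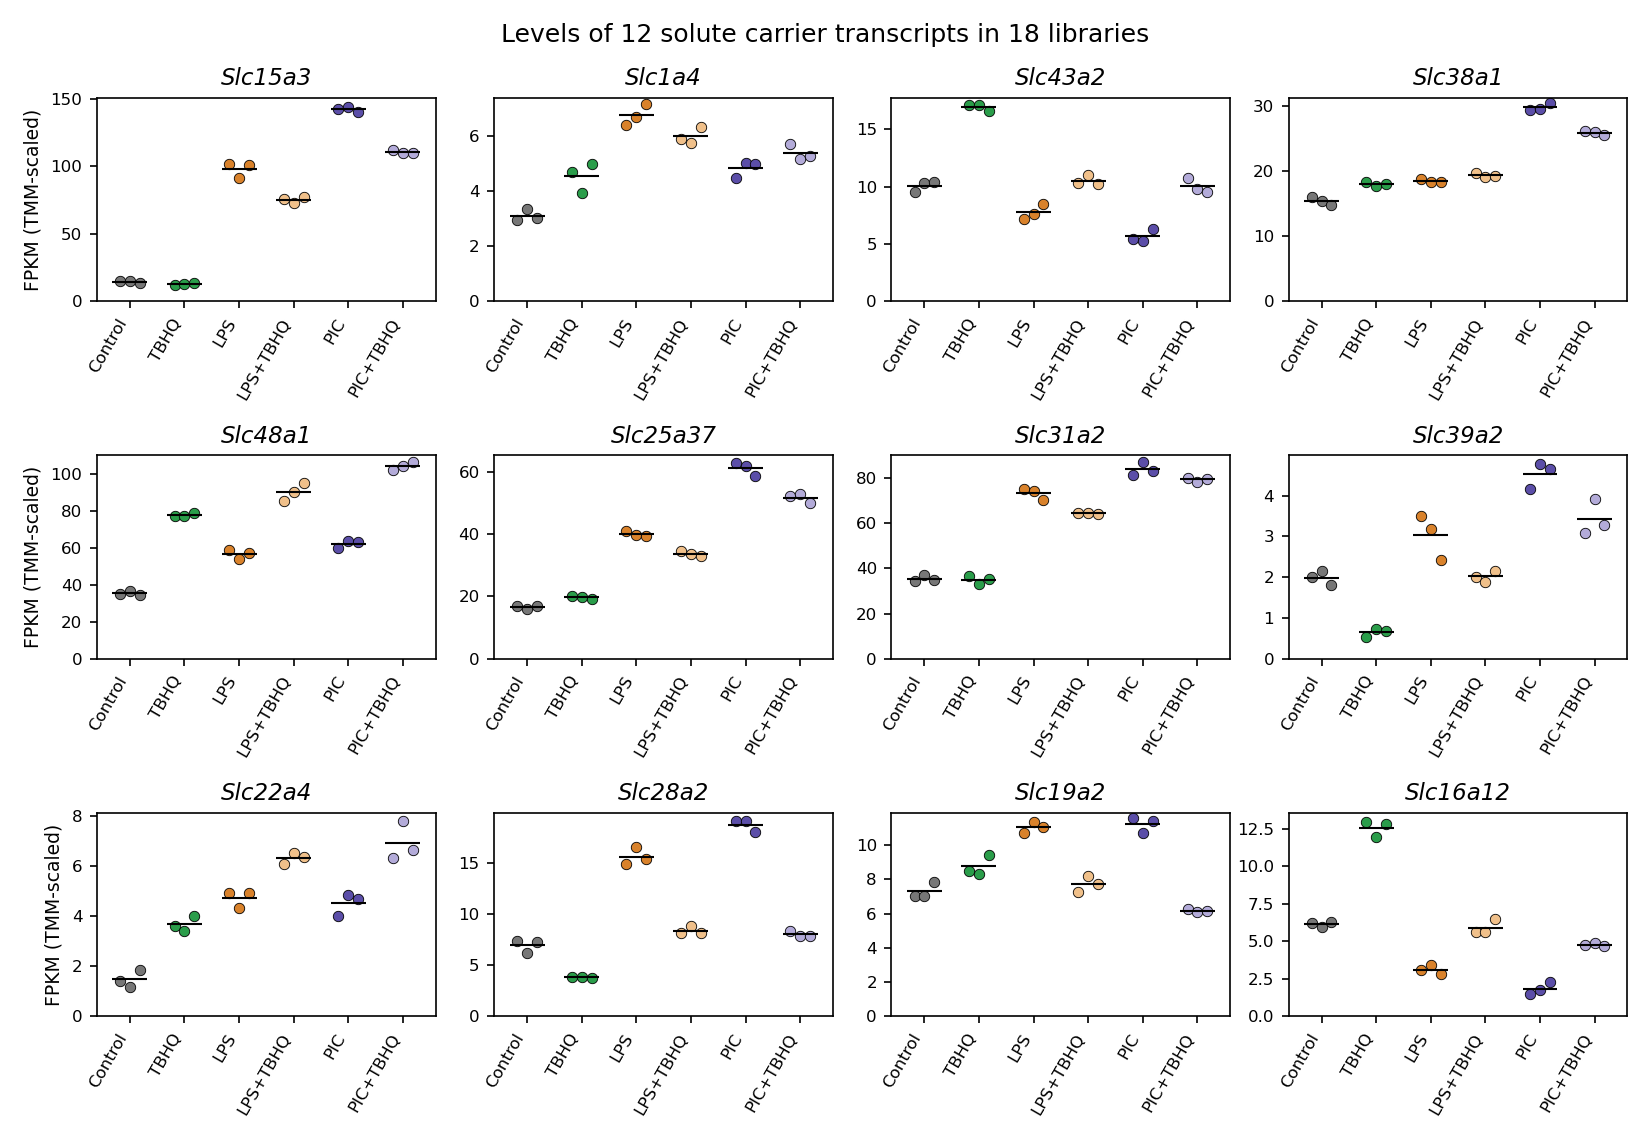
Levels of 12 solute carrier transcripts as TMM-scaled FPKM (vertical axes, starting at 0) in the 6 conditions (horizontal axes). Points are the 3 libraries of a condition and bars their means. Slc15a3 ran from a mean of 12.8 in TBHQ to 142 in PIC, and Slc48a1 from 35.6 in Control to 104 in PIC+TBHQ.

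For PIC against LPS, Slc38a1, Slc25a37, Slc39a2, Slc15a3 and Slc2a6 were higher with PIC, by 0.69, 0.61, 0.57, 0.53 and 0.49 on the log2 scale. Slc16a12, Slc46a3, Slc1a4, Slc43a2 and Slc43a3 were lower, with log2FC of -0.73, -0.63, -0.48, -0.45 and -0.44. The difference of the TBHQ effect between PIC and LPS was tested for each member, and 5 passed an FDR below 0.05, beside 1.83% of all genes. The effect of TBHQ was more negative under PIC for 4 of these: the log2 difference was -0.27 for Slc38a1 (FDR 0.000479), -0.29 for Slc4a7 (FDR 0.0193), -0.29 for Slc5a3 (FDR 0.0405) and -0.32 for Slc28a2 (FDR 0.0433). It was more positive for Slc43a2, at 0.38 (FDR 0.00888). Of all genes, 1.01% were called more negative and 0.825% more positive. With total library size these shares became 0.541% and 1.72%, and Slc4a7, Slc5a3 and Slc28a2 lost their calls. For Slc38a1 the effect of TBHQ was 0.07 under LPS and -0.20 under PIC, beside 0.23 with TBHQ alone. For Slc19a2 a difference of -0.35 had an FDR of 0.0512. The Slc38a1 call held without any 1 of the 12 libraries of these conditions. That of Slc43a2 had an FDR of 0.0508 to 0.0695 when any 1 of these was left out: LPS replicate 3, PIC replicates 1 and 2, PIC+TBHQ replicate 1. That of Slc4a7 had an FDR of 0.0517 to 0.07 when any 1 of these was left out: LPS replicates 1 and 3, LPS+TBHQ replicates 1 and 2, PIC replicate 3, PIC+TBHQ replicate 1. That of Slc28a2 had an FDR of 0.0549 to 0.143 when any 1 of these was left out: LPS replicates 1 and 3, LPS+TBHQ replicates 1, 2 and 3, PIC replicates 1 and 2, PIC+TBHQ replicates 2 and 3. That of Slc5a3 had an FDR of 0.052 to 0.0917 when any 1 of these was left out: LPS replicates 1 and 3, LPS+TBHQ replicates 1, 2 and 3, PIC replicates 1 and 3, PIC+TBHQ replicates 1, 2 and 3. Over all members, leaving out 1 library gave 1 to 6 calls, beside 1.14% to 2.52% of all genes: 1 without LPS replicate 3, 2 without LPS replicate 1, LPS+TBHQ replicate 2, PIC replicate 1 or PIC+TBHQ replicate 1, and 3 without LPS+TBHQ replicate 1, LPS+TBHQ replicate 3, PIC+TBHQ replicate 2 or PIC+TBHQ replicate 3.

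**Figure D3:**
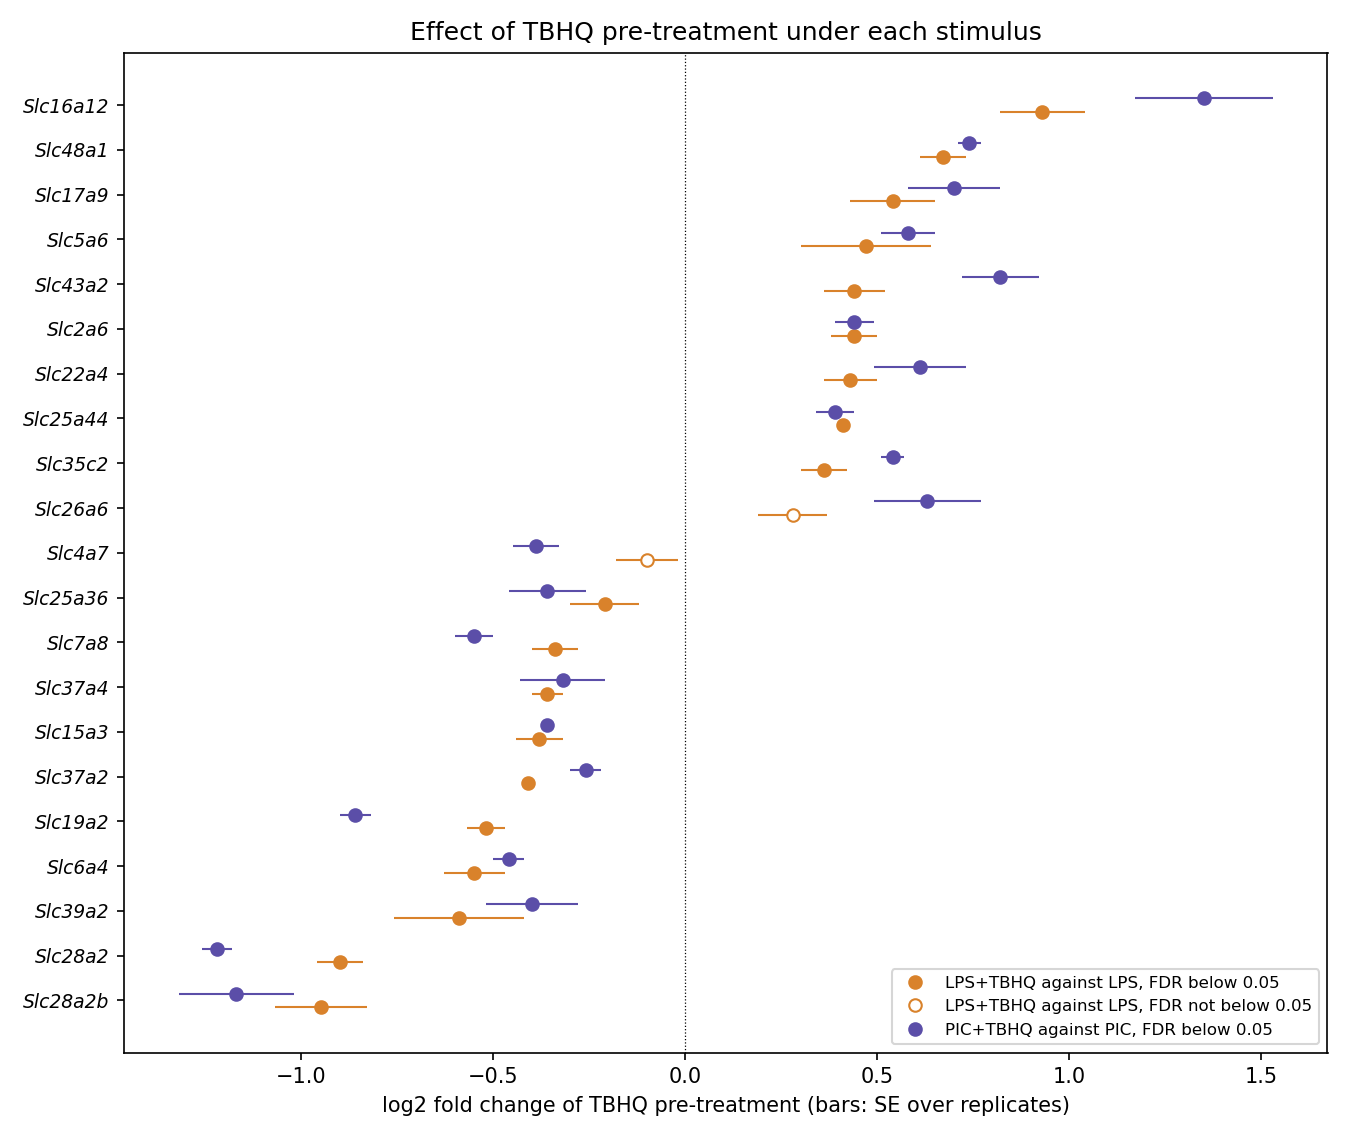
Log2 fold changes (horizontal axis) of pre-treatment, orange for LPS and purple for PIC, in 21 members among the highest or lowest of either comparison (vertical axis). Bars are the SE over replicates, filled points had an FDR below 0.05 and open points did not. Slc16a12 lies highest, at 0.93 and 1.35, and Slc28a2 lies at -0.90 and -1.22.

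Other carriers and partner proteins without an Slc symbol, such as mitochondrial pyruvate carriers, the heme exporter and basigin, were counted beside the members. Of these, 34 were tested, and 4 rose and 9 fell with TBHQ (beside 14.2% and 14.8% of all genes), 3 and 14 with LPS (24.0% and 24.1%), 4 and 21 with PIC (28.6% and 30.1%), 9 and 2 for TBHQ before LPS (11.7% and 12.2%), and 13 and 2 before PIC (15.8% and 15.5%). Scaled by library totals, the counts were 1 and 19 with LPS (17.9% and 33.3%), 2 and 27 with PIC (17.4% and 48.5%), 11 and 2 for TBHQ before LPS (15.1% and 10.2%) and 16 and 1 before PIC (24.8% and 10.5%). Basigin (Bsg), the partner of the lactate carriers, was at 176, 178 and 175 FPKM in Control and 233, 231 and 218 in PIC, higher by 0.37, and had log2FC of -0.20 and -0.24 for TBHQ before LPS and PIC. Mfsd6 rose by 0.52 for TBHQ before LPS and 0.78 before PIC, and fell, with log2FC of -0.46 with PIC. Of the 11 Slc genes left out by name, 8 rose and 2 fell with LPS, beside 24.0% and 24.1% of all genes, and 9 rose and 1 fell with PIC, beside 28.6% and 30.1%. Under total library size these counts were 8 and 2 with LPS, beside 17.9% and 33.3%, and 7 and 2 with PIC, beside 17.4% and 48.5%.

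Promoters are shown for members raised by more than 2-fold with TBHQ or PIC, to show which hold the core letters of elements linked to antioxidant and interferon responses. The letters searched, on both strands, were TGACNNNGC (antioxidant response element core) and GAAANNGAA (interferon-stimulated response element core). In RefSeq's table of 300-base windows around gene starts (GRCm38.p6), 2 of the 3 members raised by TBHQ had an entry: Slc22a4 and Slc16a12. The first core was in the window of Slc16a12 and not in that of Slc22a4. Of the 9 members raised by PIC, 7 had entries, and the second core was in the windows of Slc7a8 and Slc28a2b. Of all 27025 genes with a window, 3781 held the first core in at least 1 of their windows and 2638 the second. A match describes letters in a window, not a site in use. Slc48a1, Slc15a3 and Slc25a37 had no window.

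The windows that held a match are printed 5′ to 3′ with the matched letters in capitals, and that of Slc22a4, the member with the largest rise with TBHQ alone, is printed for comparison. Slc16a12 lies at chr19:34747279-34747578, minus strand, with a match on each strand. Slc31a2 lies at chr4:62286179-62286478, plus strand, with the first core. Slc7a8 lies at chr14:54781837-54782136, minus strand and Slc28a2b at chr2:122484691-122484990, plus strand, with the second core. Slc22a4 lies at chr11:54028055-54028354, minus strand.
Slc16a12: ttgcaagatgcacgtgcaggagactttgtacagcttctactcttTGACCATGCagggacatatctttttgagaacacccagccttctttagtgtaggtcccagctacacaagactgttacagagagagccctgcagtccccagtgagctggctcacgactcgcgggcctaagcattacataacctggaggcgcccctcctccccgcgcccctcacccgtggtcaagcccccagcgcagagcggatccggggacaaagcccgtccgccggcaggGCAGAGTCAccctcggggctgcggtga
Slc31a2: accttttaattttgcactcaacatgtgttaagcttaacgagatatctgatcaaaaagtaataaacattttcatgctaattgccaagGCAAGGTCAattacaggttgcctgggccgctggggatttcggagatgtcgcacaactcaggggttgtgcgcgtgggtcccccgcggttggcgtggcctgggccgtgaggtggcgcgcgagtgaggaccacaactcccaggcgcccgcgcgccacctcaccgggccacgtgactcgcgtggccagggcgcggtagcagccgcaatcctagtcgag
Slc7a8: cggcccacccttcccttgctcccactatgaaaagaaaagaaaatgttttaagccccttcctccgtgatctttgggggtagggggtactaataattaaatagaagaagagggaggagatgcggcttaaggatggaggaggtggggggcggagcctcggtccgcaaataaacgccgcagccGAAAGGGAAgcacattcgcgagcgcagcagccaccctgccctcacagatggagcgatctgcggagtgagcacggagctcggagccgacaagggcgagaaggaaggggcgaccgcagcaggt
Slc28a2b: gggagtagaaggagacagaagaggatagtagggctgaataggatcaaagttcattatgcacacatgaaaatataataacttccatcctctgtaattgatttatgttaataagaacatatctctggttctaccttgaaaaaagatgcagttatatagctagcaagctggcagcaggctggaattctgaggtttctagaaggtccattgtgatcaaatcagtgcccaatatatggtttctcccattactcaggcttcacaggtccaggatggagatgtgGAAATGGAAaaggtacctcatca
Slc22a4: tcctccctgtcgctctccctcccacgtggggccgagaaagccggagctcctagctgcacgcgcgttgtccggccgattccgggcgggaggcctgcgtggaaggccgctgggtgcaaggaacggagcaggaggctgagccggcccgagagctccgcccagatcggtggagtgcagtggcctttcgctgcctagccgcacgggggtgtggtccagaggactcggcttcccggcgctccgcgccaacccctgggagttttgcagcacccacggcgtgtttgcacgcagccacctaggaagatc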

How the data were processed

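Poly(A) RNA of 18 libraries of RAW 264.7 cells was sequenced. The deposited table holds raw read counts of 56748 genes with FPKM computed by the authors. Their processing notes name HISAT2 2.0.5, StringTie 1.3.3b and featureCounts 1.5.0-p3. Genes passing filterByExpr (13691) were fitted in edgeR 4.0.16 (R 4.3.3) with TMM, 1 coefficient per condition and glmQLFTest (common dispersion 0.00192), and p-values were adjusted by Benjamini-Hochberg. The procedure was tested on simulated data: in 1 run all planted changes were recovered, and the share of false calls lay above the nominal FDR. Depth was 14423390 to 18851626 counts, where 3 counts, the floor taken, cover counting error only.

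The members and lists were chosen with earlier results of these data known. Named members were the 8 highest and 8 lowest log2FC among called members without overlap of libraries in the comparisons with Control and of pre-treatment, the 5 highest and 5 lowest for PIC against LPS, those with the smallest p for the difference between stimuli, the 10 of highest FPKM, and a list by function. A few others are marked as named after their values were seen. Classes were assigned from family numbers by general knowledge. Of the cell type markers, 1 is not reported here. Alternatives were DESeq2 1.42.0, limma 3.58.1 on log2(FPKM + 1), RLE size factors, total library size, the compared conditions alone, no filter or a mean of at least 50 counts, a replicate block, other thresholds, other membership minimums and leaving out each library. Exon overlaps came from GENCODE vM21, promoters from RefSeq on GRCm38.p6.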

Additional observations from a re-analysis of the deposited data

Results flagged for a closer look

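For 5 members, 3.09%, the effect of TBHQ differed between PIC and LPS in the test of the difference itself, beside 1.83% of all genes. Leaving out 1 library gave 1 to 6 calls, beside 1.14% to 2.52% of all genes, and of these 5 only Slc38a1 kept its call throughout. The log2 difference was -0.27 for the glutamine carrier Slc38a1, -0.29 for the bicarbonate carrier Slc4a7, -0.29 for the myo-inositol carrier Slc5a3, -0.32 for the purine nucleoside carrier Slc28a2 and 0.38 for the neutral amino acid carrier Slc43a2. With total library size the FDR was 0.0594 for Slc4a7, 0.0908 for Slc5a3 and 0.0833 for Slc28a2, and with limma on log2(FPKM + 1) it was 0.107 for Slc43a2, 0.0963 for Slc4a7, 0.11 for Slc5a3 and 0.0614 for Slc28a2. The cause was not tested.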

How the results depend on the processing

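Of 190 gene and comparison results over 62 genes, 187 kept their direction and side of the threshold with DESeq2 or RLE size factors, 186 with the compared conditions alone, 183 with limma on log2(FPKM + 1), 185 without a filter and 176 with total library size. Leaving out 1 library kept 1090 such results, with 83 losing and 3 gaining the call. Total library size gave 42 members higher and 89 lower with PIC (beside 17.4% and 48.5% of all genes), 79 higher for TBHQ before PIC (24.8%), and 17 higher and 79 lower for PIC against LPS (7.19% and 31.9%). Under it the sign turned for Slc1a5 (-0.09), Slc20a1 (-0.05), Slc25a3 (-0.10) and Slc38a2 (-0.06) with PIC and for Slc25a3 (-0.01) and Slc25a5 (-0.01) in PIC against LPS, which goes with its shift of the median of all genes.

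With limma the difference between stimuli had 1 call, beside 1.40% of all genes. At an FDR below 0.01, 23 members were lower with TBHQ (10.3% of all genes), 19 lower with PIC against LPS (7.96%), and 2 differed between stimuli (0.840%). With |log2FC| above 1 asked for as well (FDR below 0.05), counts higher and lower were 3 and 2 with TBHQ (0.774% and 1.22% of all genes), 7 and 0 with LPS (4.94% and 2.53%), 9 and 3 with PIC (7.65% and 5.54%), 0 and 0 for TBHQ before LPS (0.329% and 1.53%), 1 and 2 before PIC (0.738% and 1.64%), 0 and 0 for PIC against LPS (1.39% and 0.453%), and 0 for the difference (0.139%). These follow from the stricter threshold.

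Leaving out 1 library gave 32 to 38 higher and 27 to 30 lower with TBHQ (beside 10.99% to 12.2% and 11.9% to 12.7% of all genes), 52 to 61 and 42 to 48 with LPS (21.1% to 22.9% and 20.7% to 21.9%), 58 to 64 and 54 to 59 with PIC (26.1% to 27.7% and 26.2% to 27.8%), 31 to 35 and 14 to 17 for TBHQ before LPS (8.79% to 11.3% and 9.76% to 10.95%), 42 to 50 and 18 to 22 before PIC (10.8% to 13.1% and 13.1% to 15.1%), 27 to 30 and 21 to 29 for PIC against LPS (12.8% to 13.6% and 9.65% to 11.2%), and 1 to 6 for the difference (1.14% to 2.52%): 1 without LPS replicate 3, 2 without LPS replicate 1, LPS+TBHQ replicate 2, PIC replicate 1 or PIC+TBHQ replicate 1, 3 without LPS+TBHQ replicates 1 or 3 or PIC+TBHQ replicates 2 or 3.

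With the replicate number as a replicate block, counts were 41 and 36 with TBHQ (beside 14.5% and 15.0% of all genes), 58 and 48 with LPS (24.0% and 24.2%), 64 and 60 with PIC (28.7% and 30.2%), 38 and 17 for TBHQ before LPS (11.9% and 12.4%), 53 and 22 before PIC (16.1% and 15.6%), 31 and 32 for PIC against LPS (15.1% and 13.0%), and 6 for the difference (2.00%). Same-number libraries were no more alike than others (median r across genes 0.00225 and -0.000615). Exons shared on the same strand (11 members) or the opposite strand (44) limit those counts.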
